A study of Mus musculus with 48 samples.

Results

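The EGF receptor (gene Egfr) and 7 genes for secreted or shed ligands of its receptor family, Areg, Ereg, Hbegf, Tgfa, Btc, Epgn and Nrg1, were measured by RNA sequencing in the lungs of 48 adult mice. The members were taken by gene symbol and not by a cut on their values, though with earlier results of these data known. They are 8 of the 47561 genes in the expression table. The mice were of 2 inbred strains, labelled C3H/hen (C3H) and C57Bl/6 (C57B), which the methods of the study give as C3H/HeN and C57Bl/6N, and of both sexes. Each mouse had received an intraperitoneal injection of saline or of aurothioglucose (ATG, 25 mg/kg), a gold compound that inhibits thioredoxin reductase. It had then been kept for 96 h in room air or in hyperoxia (more than 95% oxygen). The 16 combinations of strain, sex, injection and air held 3 mice each. Strain and sex groups are written C3HM, C57BM, C3HF and C57BF for males (M) and females (F). All were unmodified inbred mice, whole lung was the labelled tissue, and no mouse served in more than 1 group.

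The EGF receptor is a tyrosine kinase at the cell surface that pairs with itself or with its relatives ErbB2, ErbB3 and ErbB4 when a ligand binds. Amphiregulin (Areg), epiregulin (Ereg), heparin-binding EGF (Hbegf), transforming growth factor alpha (Tgfa), betacellulin (Btc) and epigen (Epgn) are made as membrane-bound precursors and bind the EGF receptor once proteases of the ADAM family cut them free. Neuregulin 1 (Nrg1) binds ErbB3 and ErbB4 instead. In the lung this family is known for its part in epithelial growth and repair after injury.

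Values are FPKM, read fragments corrected for transcript length and for library size, so levels can be set side by side between genes. The summed FPKM per library ranged from 510933 to 748290, and absolute read depth is unknown. In all 48 mice the most similar other library had the same air and the same strain, and no 2 of the 1128 pairs of libraries were identical. Within groups, the lowest correlation (0.933) was between C3HM saline room air mice 1 and 2, and the club cell gene Scgb1a1 took 30.2% of the summed FPKM in mouse 1. The lung label was met by abundant surfactant and club cell transcripts. Marker sums, which are carried by their most abundant genes, moved with air. The alveolar type 2 sum (6 genes) fell from 25727–49359 FPKM in saline room air mice to 5754–21840 in saline hyperoxia mice, and the club cell sum (3 genes) from 69658–230687 to 6935–42120, with no marker at 0 in all mice. The type 2 list was not uniform, as Sftpb rose (log2 change 0.40) while the others fell. The neutrophil sum (5 genes) was 135–774 in saline room air and 161–6265 in saline hyperoxia. In whole-lung RNA, fewer cells of a type and less RNA per cell cannot be told apart, and the part of these shifts in the members' changes was not tested, except where a value is given below.

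On the mouse genome GRCm38, which the authors' build mm10 equals, Epgn, Ereg, Areg and Btc lie together on chromosome 5, within 375531 bases that hold these 4 protein-coding genes and no other. Areg (ENSMUSG00000029378) spans 91139599 to 91148432 on the plus strand. Ereg (ENSMUSG00000029377) spans 91074622 to 91093646 on the plus strand, and Epgn (ENSMUSG00000035020) 91027464 to 91035215 on the plus strand. Btc (ENSMUSG00000082361) spans 91357261 to 91402994 on the minus strand. Egfr (ENSMUSG00000020122) lies on chromosome 11 from 16752203 to 16918158 (plus strand), Tgfa (ENSMUSG00000029999) on chromosome 6 from 86195223 to 86275719 (plus strand), and Nrg1 (ENSMUSG00000062991) on chromosome 8 from 31814551 to 32884029 (minus strand). Hbegf is ENSMUSG00000024486. Egfr and Ereg each overlap an annotated antisense gene (Egfros and Gm19610), and Tgfa (Gm43917) and Nrg1 (Gm26578 and Gm22140) overlap other genes on the opposite strand. Whether counting used strand is not settled by the sources, so reads of such a pair may be shared.

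The 250 bases before the RefSeq start site (GRCm38.p6) of the receptor and of the 3 tested ligands that have an entry follow, because they set the ligand with the largest rise that was expressed in both airs, Areg, beside its cluster neighbour Btc, which fell. RefSeq entries were matched for 5 of the 8 members, the fifth being Epgn. Each is written 5′ to 3′ on the gene's own strand, and capitals mark a match to 1 of 4 motifs searched on both strands. These were the cyclic AMP response element TGACGTCA, the AP-1 site TGANTCA, the antioxidant response element core TGACNNNGC, and the TATA box TATAAA.
Areg, chr5:91139349-91139598, plus strand: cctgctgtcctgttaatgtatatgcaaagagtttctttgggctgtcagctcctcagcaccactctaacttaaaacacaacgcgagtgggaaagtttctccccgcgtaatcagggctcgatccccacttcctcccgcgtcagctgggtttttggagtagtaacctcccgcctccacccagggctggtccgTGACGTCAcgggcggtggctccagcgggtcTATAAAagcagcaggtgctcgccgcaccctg
Btc, chr5:91402995-91403244, minus strand: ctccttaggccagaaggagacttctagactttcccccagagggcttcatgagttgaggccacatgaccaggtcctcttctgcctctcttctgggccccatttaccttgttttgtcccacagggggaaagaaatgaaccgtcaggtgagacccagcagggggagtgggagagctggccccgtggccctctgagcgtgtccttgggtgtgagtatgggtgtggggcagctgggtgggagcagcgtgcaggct
Egfr, chr11:16751953-16752202, plus strand: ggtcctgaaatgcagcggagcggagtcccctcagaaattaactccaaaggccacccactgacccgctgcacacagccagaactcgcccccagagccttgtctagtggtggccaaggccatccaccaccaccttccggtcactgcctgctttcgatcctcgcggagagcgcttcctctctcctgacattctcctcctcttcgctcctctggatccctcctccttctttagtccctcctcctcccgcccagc
Tgfa, chr6:86194972-86195221, plus strand: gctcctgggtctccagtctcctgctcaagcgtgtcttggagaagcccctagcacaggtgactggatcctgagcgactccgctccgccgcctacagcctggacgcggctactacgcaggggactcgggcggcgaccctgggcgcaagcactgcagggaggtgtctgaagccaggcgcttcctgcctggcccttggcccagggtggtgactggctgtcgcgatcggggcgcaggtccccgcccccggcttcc

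The Areg window held a cyclic AMP response element 61 to 54 bases before the start and a TATA box 31 to 26 bases before it. Of all 32851 RefSeq windows of this length, 1.55% held the first, 6.75% an AP-1 site, 10.2% the antioxidant response element core and 12.4% a TATA box. The Btc, Egfr and Tgfa windows held none of the 4 strings. The Epgn window, not printed here, held a TATA box 86 to 81 bases before its start. A match is a description of the letters only.

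Hyperoxia was the first comparison, saline mice in hyperoxia against saline mice in room air (12 against 12). The receptor and 5 ligands rose. Areg and Nrg1 lay above every room air mouse in every hyperoxia mouse, Hbegf more than doubled from an already high level, and Egfr and Tgfa rose less. Btc was the 1 tested member that fell, and Epgn stayed below 1 FPKM throughout. Changes below are log2 differences of log2(FPKM + 1) from limma with Benjamini-Hochberg adjusted p-values over all 16321 genes tested, a scale that understates the change of weakly expressed genes. Of those genes, 60.1% passed the threshold and 31.8% passed it upward, so passing sets the members little apart and their size is what is described. The median of all genes was 0.01. Here and below, overlap of sets is a description only, since the share of all genes without overlap is not given.

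Areg, an EGF receptor ligand made by epithelium and immune cells, lay between 0.998 and 13.0 FPKM in saline room air mice (median 5.28) and between 26.4 and 81.6 in saline hyperoxia mice (median 46.0). The 2 sets did not overlap. The change was 3.06 ± 0.15 (SE; adjusted p = 1.67e-12), and 0.245% of the tested genes changed by more in either direction.

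Nrg1, the ErbB3 and ErbB4 ligand, lay between 0.848 and 2.46 FPKM in room air (median 1.65) and between 9.26 and 15.4 in hyperoxia (median 11.6). Every hyperoxia mouse was above every room air mouse, and the spread among the 12 hyperoxia mice was narrow beside the change of 2.27 ± 0.11 (adjusted p = 2.68e-12).

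Hbegf, the heparin-binding ligand, was the highest member in room air, with 19.2 to 29.9 FPKM (median 21.6), and reached 37.0 to 91.8 in hyperoxia (median 53.6). These sets did not overlap either, and the change was 1.23 ± 0.11 (adjusted p = 5.66e-09).

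Ereg, an EGF receptor and ErbB4 ligand, was almost absent from room air lungs, at 0.0374 to 0.373 FPKM (median 0.131). In saline hyperoxia it ran from 0.384 to 208 FPKM (median 5.63), the widest spread of any member. The sets did not overlap, although the lowest hyperoxia mouse was barely above the highest room air mouse. The change was 3.52 ± 0.55 (adjusted p = 1.59e-05). Ereg passed the filter on low values only through the hyperoxia mice, so its call is not independent of that filter. The change was 5.34 with a pseudocount of 0.1.

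Egfr, the receptor, lay between 1.71 and 5.38 FPKM in room air (median 2.51) and between 3.00 and 11.5 in hyperoxia (median 5.75). The sets overlapped, and the change was 0.91 ± 0.14 (adjusted p = 1.24e-05). Tgfa, an epithelial ligand, lay between 2.88 and 7.47 FPKM in room air (median 5.37) and between 5.51 and 11.7 in hyperoxia (median 8.44). These also overlapped, with a change of 0.60 ± 0.083 (adjusted p = 3.57e-06).

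Btc, betacellulin, moved the other way. It lay between 0.781 and 3.68 FPKM in room air (median 1.91) and between 0.504 and 2.60 in hyperoxia (median 1.23). The sets overlapped, and the log2 value fell by 0.39 (SE 0.13, adjusted p = 0.0125). Under quantile normalization this difference was −0.27 (adjusted p = 0.0607) and no longer passed.

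Epgn was listed at 0 in 19 of the 48 mice and reached at most 0.966 FPKM. It passed no filter, and an exact permutation test (air labels exchanged within strain and sex, two-sided) gave a difference of 0.17 between saline hyperoxia and saline room air, p = 0.115.

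**Figure D1:**
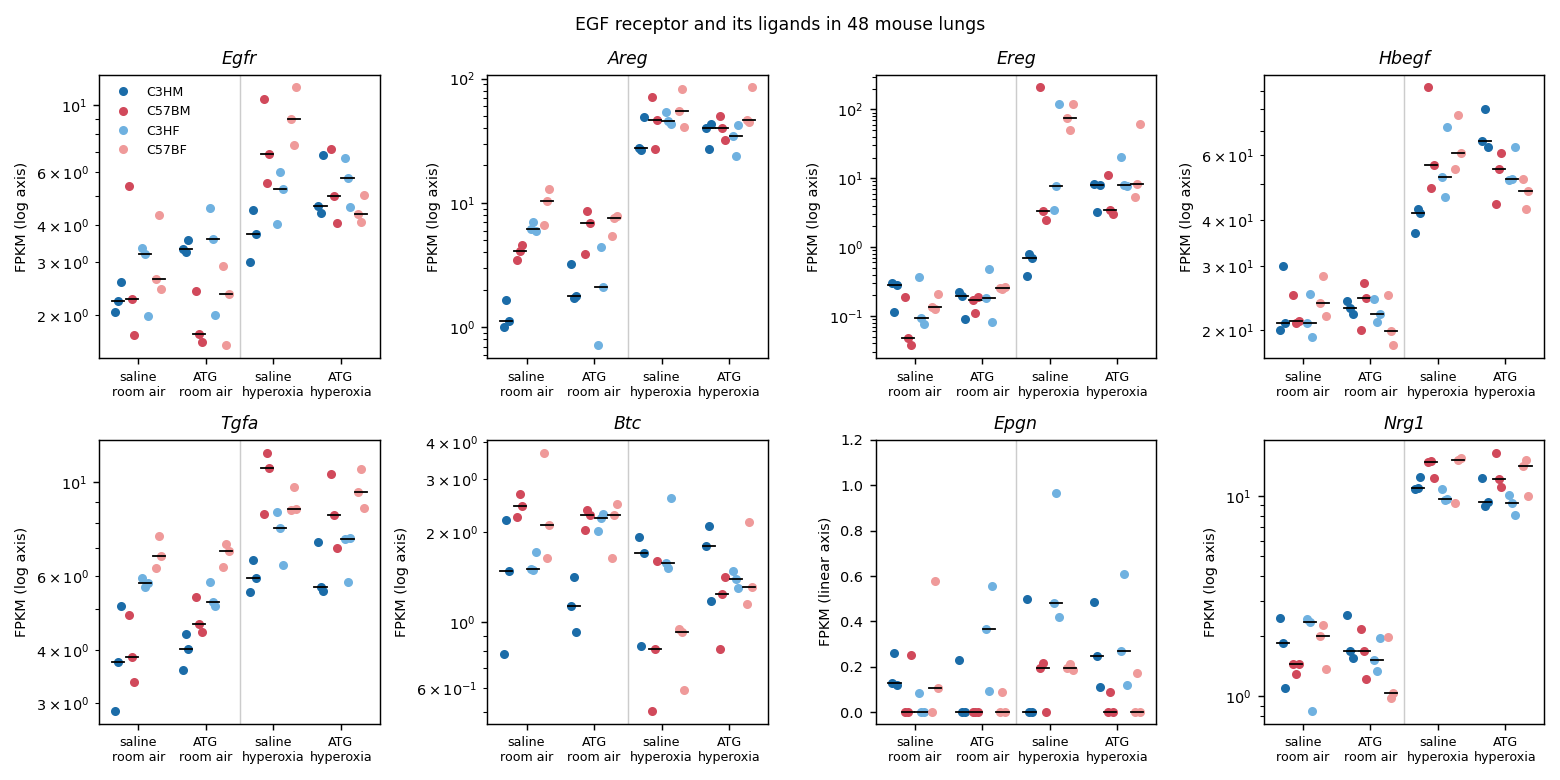
FPKM of each member in each mouse (log axis, Epgn on a linear axis) by injection and air, with colours for the strain and sex groups and a short line at each median of 3 mice. The hyperoxia points of Areg, Hbegf and Nrg1 lie above all room air points in both injections, Ereg spreads from 0.384 to 208 FPKM in saline hyperoxia, and Btc is low in the C57B saline hyperoxia mice.

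The makeup of the ligand pool changed with these shifts. The summed FPKM of the 7 ligands was 27.7 to 50.6 in saline room air mice (median 37.4) and 84.0 to 395 in saline hyperoxia mice (median 130). Hbegf made up a median of 62.0% of the sum in room air and 38.0% in hyperoxia. Areg went from 14.7% to 31.5% and Nrg1 from 4.44% to 8.15%. Tgfa went from 14.1% to 5.91% although its level rose, since the sum rose more. Btc went from 5.01% to 0.979%. Ereg went from 0.302% to 4.80%, and its share in single hyperoxia mice ran from 0.458% to 52.8%.

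Ordered by median FPKM in saline room air, Hbegf was above every other ligand in every mouse, Tgfa (5.37) and Areg (5.28) overlapped, as did Btc (1.91) and Nrg1 (1.65), and Ereg (0.131) was below them all. In saline hyperoxia Hbegf (53.6) and Areg (46.0) overlapped at the top. Nrg1 (11.6) and Tgfa (8.44) followed with overlapping ranges, Ereg (5.63) crossed all of them, and Btc (1.23) was lowest of the ligands tested.

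**Figure D2:**
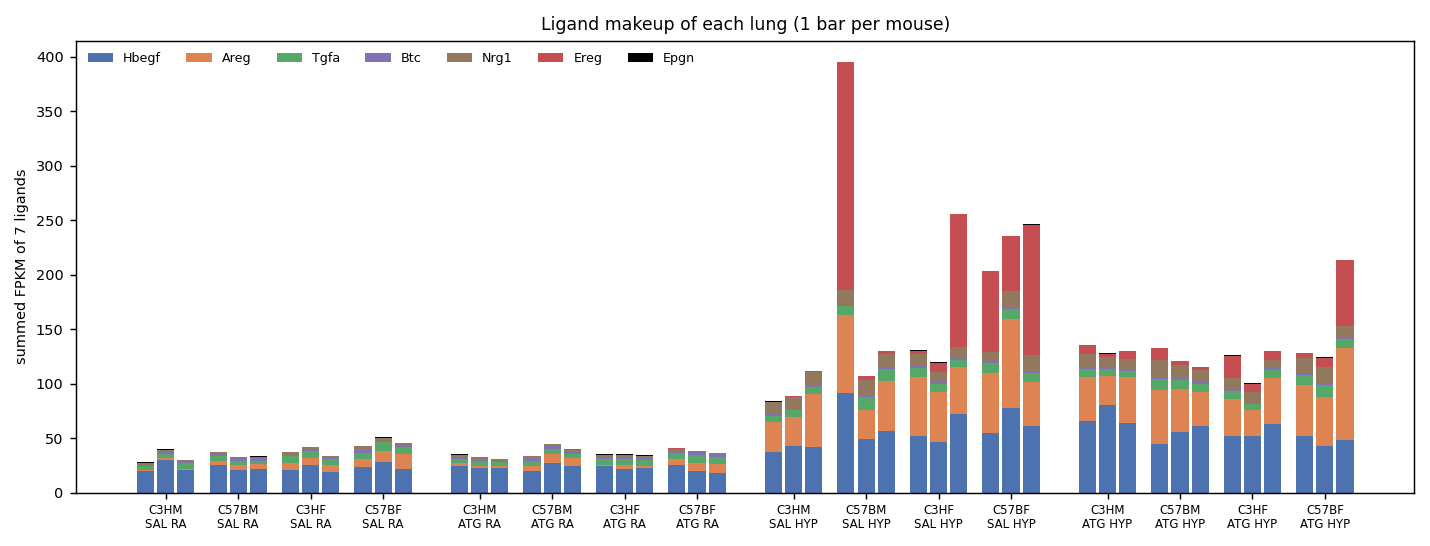
Summed FPKM of the 7 ligands in each mouse (1 bar per mouse, linear axis from 0), stacked by ligand and ordered by injection, air, strain and sex. Room air bars stay at or under 50.6 FPKM in saline mice, Hbegf and Areg are the largest parts of most hyperoxia bars, and the tallest bar, at 395 FPKM, is 52.8% Ereg.

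The pattern over the 4 saline hyperoxia groups differed by member. Ereg was 0.384, 0.807 and 0.703 FPKM in the C3HM mice, and 208, 3.30 and 2.50 in the C57BM mice. It was 3.48, 7.79 and 122 in the C3HF mice and 74.5, 50.4 and 120 in the C57BF mice. The C57BF group was the only saline hyperoxia group with all 3 mice above 50 FPKM, and a single mouse was high in C57BM and in C3HF.

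Ereg levels ran beside neutrophil markers within hyperoxia. All 5 of these markers rose with hyperoxia in saline mice (median log2 1.44). In the C57BM group the mouse with 208 FPKM of Ereg had a neutrophil sum of 4853 FPKM, and the other two had 281 and 161. In the C3HF group the mouse with 122 FPKM had 6265, and the other two had 180 and 1474. The 3 C57BF mice had 3966, 2143 and 4124, and the 3 C3HM mice 190, 176 and 219. Over all 24 hyperoxia mice, the log2 levels of Ereg and of the neutrophil sum had Pearson's r = 0.909 and Spearman's rho = 0.877 (permutation p = 1e-05 for each, the smallest that 100000 permutations give, and 6.5e-05 adjusted over the 13 marker lists tried). Pearson's r was 0.917 within the 12 C3H mice, 0.952 within the 12 C57B mice, and 0.876 without the 2 mice farthest from the median neutrophil sum. The alveolar type 1 sum ran against Ereg (r = −0.836, rho = −0.816, adjusted permutation p = 6.5e-05 for each), as did the alveolar type 2 sum (r = −0.728, rho = −0.757, 0.000173 for each) and the ciliated sum (r = −0.631, rho = −0.544, 0.00393 and 0.0227). The monocyte sum gave r = 0.519 and rho = 0.473 over both strains (adjusted permutation p = 0.0240 and 0.0515), with r = 0.870 in C3H and 0.915 in C57B. The permutations exchanged all 24 mice freely, not within groups of strain, sex and injection. Differences between those groups therefore enter these p-values, and the r and rho values as well. These correlations were added after the values had been seen, so their p-values are descriptive.

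In room air no association was computed. The 3 C57BM ATG room air mice had neutrophil sums of 1571, 1804 and 3620 FPKM, and Ereg at 0.172, 0.112 and 0.189 FPKM. No room air mouse exceeded 0.489 FPKM of Ereg.

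**Figure D3:**
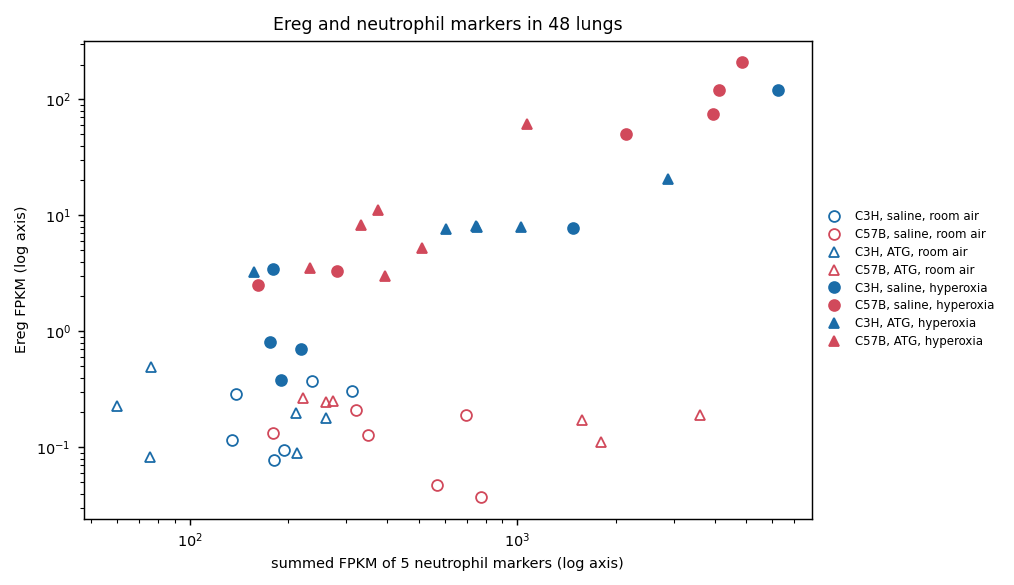
Ereg FPKM against the summed FPKM of 5 neutrophil markers (S100a8, S100a9, Cxcr2, Csf3r and Retnlg) in 48 mice, both on log axes, with colour for strain, shape for injection and filled points for hyperoxia. Filled points rise together from 0.384 to 208 FPKM of Ereg, and the open room air points stay at or under 0.489 FPKM, those with neutrophil sums of 1571 to 3620 FPKM included.

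The other members moved less with Ereg across the 24 hyperoxia mice. As a description, Pearson's r of log2 levels with Ereg was 0.745 for Egfr, 0.577 for Areg, 0.553 for Hbegf, 0.227 for Tgfa, 0.122 for Nrg1 and −0.331 for Btc, with groups, air and library shared among the points. The genes most like Ereg over these mice, named after their values were seen, were F13a1 (r = 0.964), Csf1 (0.963) and Il1r2 (0.959).

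Whether strain altered the response to hyperoxia was asked by the interaction, the change in C3H minus the change in C57B among saline mice. Of all genes tested 11.5% passed, and among the members it was Btc (1 of 7). Btc was 0.781 to 2.20 FPKM in C3HM and 1.49 to 1.72 in C3HF in room air, against 0.832 to 1.92 and 1.52 to 2.60 in hyperoxia. In C57B it was 2.25 to 2.68 (C57BM) and 1.63 to 3.68 (C57BF) in room air, against 0.504 to 1.60 and 0.590 to 0.950 in hyperoxia. The C57B sets did not overlap, and the C3H sets did. The log2 change was 0.08 ± 0.18 in C3H (adjusted p = 0.752) and fell by 0.87 in C57B (SE 0.18, adjusted p = 0.000428). The interaction was 0.95 ± 0.26 (adjusted p = 0.0211), against a median of 0.15 over all genes, and that median was near 0 after rescaling.

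The Btc interaction depended on the scaling. It was 0.70 under quantile normalization (limma, adjusted p = 0.0657), and with a pseudocount of 0.1 it was 1.53. Without the C3HM room air mice 1 and 3 it was 0.75, but that fit left 1 mouse in their group, so no call is drawn from it. Airway and alveolar type 2 markers moved in the same direction by strain. Each type 2 marker had a higher change in C3H than over both strains, such as −0.98 beside −1.99 for Sftpa1. The type 2 sum went from 25727–39779 FPKM to 5754–21840 in C3H and from 34573–49359 to 6616–11842 in C57B. All 3 club cell markers passed the same interaction upward (median log2 2.06). The club sum in C3H went from 69658–230687 FPKM in room air to 27212–42120 in hyperoxia, and in C57B from 97371–166708 to 6935–17436. Of 4 ciliated markers 1 passed (median 0.99), with sums of 481–738 and 129–331 FPKM in C3H and of 519–765 and 62.1–179 in C57B. The part of all these markers in the Btc difference was not tested.

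Within C3H alone 37.8% of all genes passed and 6 members rose, and within C57B alone 55.5% passed, 6 members rose and Btc fell. Ereg is in both counts although it entered the fit only through hyperoxia mice, so its calls are not independent of the filter. The C3H and C57B changes of the members are given in the plot of changes. Ereg changed by 2.12 ± 0.78 in C3H and by 4.91 ± 0.78 in C57B. That difference, −2.79 ± 1.10, did not pass (adjusted p = 0.102), but did without C57BM mouse 21 (−3.30, adjusted p = 0.0426), without C3HF mouse 33 (−3.50, 0.0190) and when all 48 mice were fitted together (0.0333). Mouse 21 had the lowest Ereg of the C57B saline hyperoxia mice and mouse 33 the highest of the C3H ones. Leaving out either had to widen the difference. In 29 of 32 alternatives the Ereg call stayed the same. Egfr rose by 0.59 ± 0.20 in C3H and 1.23 ± 0.20 in C57B, a difference of −0.63 ± 0.28 (adjusted p = 0.144) that passed only without C57BM mouse 13 (−0.81, adjusted p = 0.0377) among the alternatives. Tgfa rose by 0.43 ± 0.12 and 0.76 ± 0.12, and its difference passed under quantile normalization (−0.55, adjusted p = 0.0380) and median ratio scaling (−0.50, adjusted p = 0.0432) alone.

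**Figure D4:**
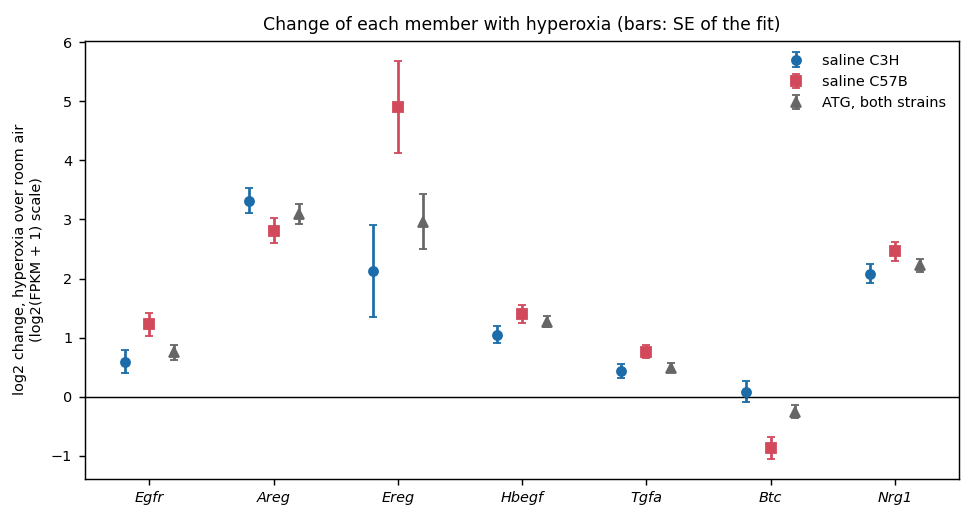
Log2 change of each tested member with hyperoxia (log2(FPKM + 1) scale, points with SE) in saline C3H, saline C57B and ATG mice of both strains. Areg and Nrg1 are at 2 or more in every set, Ereg has the widest bars, and Btc is at 0.08 in saline C3H and at −0.87 in saline C57B.

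Sex was asked the same way, as the change in males minus that in females. Only 0.0368% of genes passed and no member did (0 of 7 by limma, 3 at an unadjusted p under 0.05). Areg changed by 3.55 ± 0.21 in males and 2.58 ± 0.21 in females, a difference of 0.97 ± 0.30 (adjusted p = 0.161). Tgfa changed by 0.85 ± 0.12 and 0.34 ± 0.12, a difference of 0.51 ± 0.17 (adjusted p = 0.169). Ereg changed by 2.07 ± 0.78 and 4.96 ± 0.78, a difference of −2.89 ± 1.10 (adjusted p = 0.199). Areg passed without C3HM mouse 2 (1.04, adjusted p = 0.0474), and Tgfa (0.58, adjusted p = 0.0402) and Ereg (−3.84, adjusted p = 0.0153) passed without C57BM mouse 19. Each of these calls stayed the same in 31 of 32 alternatives. Mouse 19 had the highest Ereg of the saline hyperoxia males, so leaving it out had to widen the Ereg difference.

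The baseline of strain and sex was read from the 12 saline room air mice, which also serve as controls of the hyperoxia comparisons. Areg was the member that differed. It was 0.998, 1.67 and 1.13 FPKM in the C3HM mice and 3.49, 4.11 and 4.57 in the C57BM mice. It was 6.18, 6.96 and 5.99 in the C3HF mice and 6.68, 10.3 and 13.0 in the C57BF mice. All 6 males were below all 6 females, and the C3HM mice were below all C57BM mice, while the C3HF and C57BF mice overlapped. As a share of the ligand sum, Areg was 3.61% to 13.7% in these males and 15.7% to 28.7% in these females. The room air mice given ATG did not show this split, at 5.35% to 19.4% in males and 2.04% to 21.3% in females. Sex was not tested in those mice.

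Between strains 11.8% of 15546 genes passed, and of 6 members tested it was Areg, with a C3H minus C57B difference of −0.85 ± 0.15 (adjusted p = 0.00345) beside a median of −0.10 over all genes. Between sexes 0.669% of genes passed, and Areg was again the 1 of 6, with a male minus female difference of −1.40 ± 0.15 (adjusted p = 0.00410) beside a median of −0.12. Marker lists differed between strains as well. All 5 neutrophil markers (median −1.04, sums of 135–312 FPKM in C3H and 180–774 in C57B) and 4 of 6 alveolar type 2 markers were lower in C3H, 4 of 6 alveolar type 1 markers were higher, and their part in the Areg difference was not tested. Rescaling brought both medians to near 0 and left both Areg differences past the threshold. Tgfa was also lower in every male (2.88 to 5.08 FPKM) than in every female (5.65 to 7.47). Its difference of −0.57 ± 0.13 did not pass (adjusted p = 0.0731), but did without C3HM mouse 2 (adjusted p = 0.0170) and with all 48 mice in 1 fit (0.00126). Btc was −0.45 ± 0.18 between strains (adjusted p = 0.129), and passed without C3HM mouse 2 (−0.56, adjusted p = 0.0343) and with all 48 mice (0.0342).

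For the strain by sex interaction 0% of genes passed (0 by limma, 2538 at an unadjusted p under 0.05), and no member (0 of 6, and 0 unadjusted). The Areg interaction was −0.63 ± 0.31. Ereg and Epgn were under the filter in these mice. Exact permutation tests of C3H against C57B within sex gave p = 0.215 for Ereg and 0.780 for Epgn, where 400 arrangements allow no p below 0.005.

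ATG left the members without a passing change. In room air 0.0185% of genes passed and 0 of 6 members, with 0 at an unadjusted p under 0.05 in limma. The member changes ran from −0.18 (Areg, adjusted p = 0.799) to 0.04. Areg was 0.714 to 8.58 FPKM with ATG (median 4.18) against 0.998 to 13.0 with saline, and Hbegf 18.2 to 26.9 (median 22.6) against 19.2 to 29.9. The sets overlapped for all members. Exact permutation tests within strain and sex gave p = 0.335 for Ereg and 0.773 for Epgn.

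In hyperoxia 5.47% of genes passed between ATG and saline and again 0 of 7 members, with 0 unadjusted. Egfr changed by −0.20 ± 0.11 (adjusted p = 0.333) and Ereg by −0.50 ± 0.62 (adjusted p = 0.692). Epgn gave an exact permutation p of 0.204. Ereg ran from 3.01 to 60.9 FPKM (median 7.97) in the ATG hyperoxia mice, against 0.384 to 208 (median 5.63) in the saline ones, so the ATG range lay inside the saline range over all groups, which differed among themselves. For the interaction of hyperoxia and ATG 2.77% of genes passed and 0 of 7 members (0 unadjusted), with −0.55 ± 0.65 for Ereg and −0.16 ± 0.18 for Egfr.

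The response to hyperoxia in ATG mice, fitted with all 48 mice, had 58.2% of genes past the threshold, 6 members up and Btc down. Ereg is among the 6, and again entered the fit only through hyperoxia mice. This comparison does not share control mice with the saline one. Areg rose by 3.09 ± 0.17 and did not overlap, at 0.714 to 8.58 FPKM in room air and 23.8 to 84.8 in hyperoxia. Nrg1 rose by 2.22 ± 0.11 (0.982 to 2.56 against 8.06 to 16.5 FPKM), Hbegf by 1.27 ± 0.091 (18.2 to 26.9 against 42.9 to 80.3 FPKM) and Ereg by 2.96 ± 0.46 (0.0822 to 0.489 against 3.01 to 60.9 FPKM), each without overlap. Egfr rose by 0.75 ± 0.13 and Tgfa by 0.49 ± 0.074, with overlap, and Btc fell by 0.25 (SE 0.11, adjusted p = 0.0447).

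The ATG difference in hyperoxia was also set against strain, a contrast added after the values had been seen, in which 0.416% of genes passed and no member did by limma (3 at an unadjusted p under 0.05). Overlap between sets of 3 mice is described below without the share of all genes beside it, and is no test. Egfr was 5.52, 6.91 and 10.5 FPKM in C57BM and 7.37, 9.00 and 11.5 in C57BF hyperoxia mice given saline. With ATG it was 4.06, 4.99 and 7.16 in C57BM and 4.09, 4.35 and 5.03 in C57BF, the C57BF mice all below their saline counterparts. In C3HM it was 3.00, 3.74 and 4.49 with saline and 4.37, 4.61 and 6.83 with ATG. In C3HF it was 4.02, 5.26 and 5.97 with saline and 4.59, 5.74 and 6.68 with ATG, and these overlapped. The C57B change was −0.65 ± 0.16 (adjusted p = 0.0567), the C3H change 0.26 ± 0.16, and the difference 0.92 ± 0.23 (adjusted p = 0.0893).

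Hbegf was 37.0, 41.7 and 42.9 FPKM in C3HM hyperoxia mice given saline and 63.4, 65.4 and 80.3 in those given ATG. In C3HF it was 46.2, 52.3 and 71.8 with saline and 51.4, 51.6 and 63.2 with ATG. The C3HM sets did not overlap, and the C3HF sets did. In C57BM it was 48.8, 56.3 and 91.8 with saline and 44.2, 55.2 and 60.9 with ATG, and in C57BF 54.9, 61.0 and 77.4 against 42.9, 47.8 and 51.6. The C57BM sets overlapped, and all C57BF mice given ATG were below those given saline. Its strain difference of 0.71 ± 0.20 (adjusted p = 0.124) passed without C3HF mouse 33 (0.80, adjusted p = 0.0385) and with all 48 mice (0.0355).

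Ereg in the C3HM hyperoxia mice was 0.384, 0.807 and 0.703 FPKM with saline and 8.18, 3.28 and 7.95 with ATG. In the C57BF mice it was 74.5, 50.4 and 120 with saline and 5.28, 8.31 and 60.9 with ATG. The C3HM sets did not overlap, with ATG higher, and the C57BF sets overlapped, with ATG mostly lower. It was 3.48, 7.79 and 122 with saline and 20.6, 7.98 and 7.65 with ATG in C3HF, and 208, 3.30 and 2.50 against 11.2, 3.52 and 3.01 in C57BM, which overlapped. The strain difference was 2.61 ± 1.25 (adjusted p = 0.373). The neutrophil sum was 190, 176 and 219 FPKM with saline and 751, 157 and 756 with ATG in C3HM, and 3966, 2143 and 4124 against 512, 334 and 1074 in C57BF.

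The rest of the pathway was read from 5 lists in the saline hyperoxia comparison. The other receptors and ligands of the family did not rise. Erbb2, the co-receptor without a ligand of its own, was 7.20 to 13.8 FPKM in room air (median 8.65) and 3.81 to 8.21 in hyperoxia (median 6.86), and fell by 0.41 (SE 0.10, adjusted p = 0.00198). Nrg2, another neuregulin, fell by 0.48 (SE 0.14, adjusted p = 0.00672). Of 7 genes 4 were tested, 0 rose and these 2 fell. Erbb3, which binds Nrg1, had medians of 7.56 and 7.38 FPKM in the respective airs, and Erbb4 was at or below 0.321 FPKM in both. Nrg3 was listed at 0 in all 24 saline mice.

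Of 9 genes for ligand shedding 5 rose and 0 fell. They were the protease inhibitor Timp3 (1.13 ± 0.12) and the proteases Adam9 (1.06 ± 0.10) and Adam12 (0.63 ± 0.13). Rhbdf2 (0.82 ± 0.064) and Rhbdf1 (0.58 ± 0.076), partners of the main sheddase Adam17, made up the rest. Adam12 passed the filter only with the help of hyperoxia mice, so its call is not independent of that filter. Adam17 itself (−0.03), Adam10 (0.06), Adam15 (−0.08) and Adam19 (−0.19) did not pass. Of 18 genes for feedback 11 rose and 2 fell. Spry4 (1.81 ± 0.17), a brake on receptor signalling, Errfi1 (1.76 ± 0.21), which binds and inhibits the EGF receptor kinase, and the phosphatases Dusp4 (1.71 ± 0.14) and Dusp5 (0.87 ± 0.21) rose most. Lrig1, which promotes loss of the receptor, fell by 0.57, and Spry1 fell by 0.37.

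Of 21 adaptor and cascade genes 12 rose and 4 fell. The adaptor Gab2 (1.21 ± 0.10) and the transcription factor Stat3 (1.18 ± 0.076) rose most. Mapk3 (−0.56), Pik3r1 (−0.50), Gab1 (−0.40) and Pik3ca (−0.32) fell. Of 15 transcripts known to respond to receptor and ERK signalling 14 were tested, 12 rose and 1 fell. Mmp3, a secreted protease, rose by 3.04 ± 0.18, the transcription factors Fosl1 by 2.84 ± 0.25 and Myc by 2.78 ± 0.17, and Ptgs2, a prostaglandin synthase, by 2.15 ± 0.20. Etv5, a transcription factor also of alveolar type 2 cells, fell by 1.37. The list medians were −0.29, 0.58, 0.42, 0.36 and 1.36 in the order given, beside 0.01 for all genes and 1.23 for the 7 members tested. The medians of the members, shedding genes and response transcripts include Ereg, Adam12 and Hmga2, respectively. Each of these passed the filter only with hyperoxia mice, so those medians are not independent of it. Many of these genes also respond to other signals, and 60.1% of all genes passed.

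**Figure D5:**
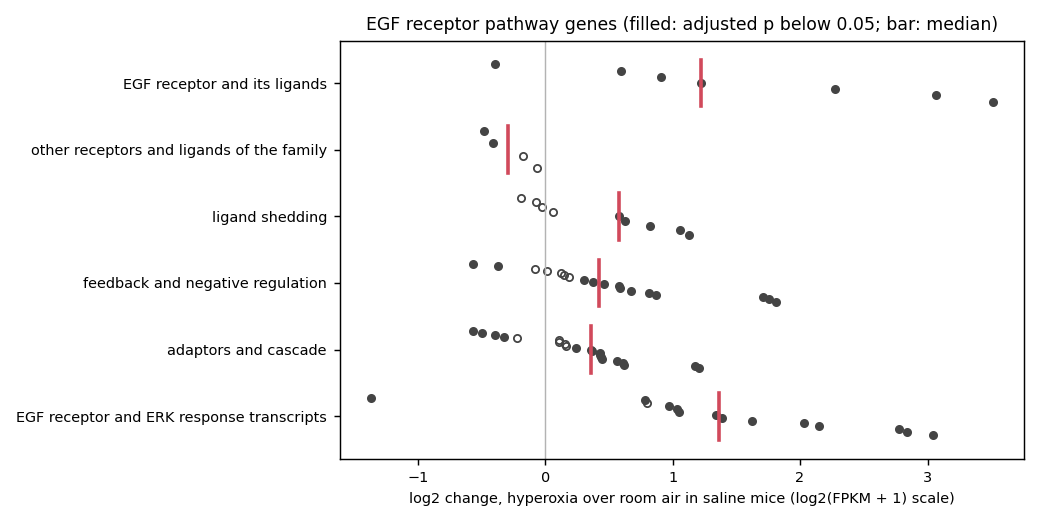
Log2 change of each tested gene of the members and of the 5 pathway lists in saline mice (hyperoxia over room air, log2(FPKM + 1) scale), with filled points past the threshold and a bar at each list's median. The members' median is 1.23 and that of the response transcripts 1.36, and the other receptors and ligands of the family lie at or under 0. The first median includes Ereg and the second Hmga2, which passed the filter only through hyperoxia mice.

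The interactions and the ATG and baseline comparisons called fewer list genes. In the strain interaction of hyperoxia Fosl1 (−2.35 ± 0.51, adjusted p = 0.00621) and Hmga2 (−1.70 ± 0.17, adjusted p = 4.45e-06) among the response transcripts had a lower change in C3H than in C57B. Hmga2 was at most 0.107 FPKM in saline room air and entered the fit only through hyperoxia mice. Neither its call here nor its place among the 12 risen is therefore independent of the filter. In C3H alone Hmga2 changed by 0.12 (limma, adjusted p = 0.444). Adam12 was under the filter in the 12 baseline mice, and so passed it in the saline fit only with the help of hyperoxia mice. Its rise and its interaction call are therefore not independent of that filter. Adam12 among the shedding genes (−0.92 ± 0.26, adjusted p = 0.0262) and Cblb (−0.52 ± 0.16, adjusted p = 0.0384) and Spry2 (−0.35 ± 0.10, adjusted p = 0.0313) among the feedback genes also had a lower change in C3H, and Plcg1 (0.85) among the adaptors had a higher one. In the interaction of hyperoxia and ATG Errfi1 (−0.97 ± 0.28, adjusted p = 0.0499), Timp3 (−0.66 ± 0.16, adjusted p = 0.0246), Rhbdf1 (−0.39 ± 0.11, adjusted p = 0.0448) and Gab2 (−0.49 ± 0.14, adjusted p = 0.0455) had a lower change with ATG. Between ATG and saline in hyperoxia Gab2 (−0.33) and Ptprj (−0.27) were lower, with 0 to 2 genes of each list passing. Between strains at baseline 4 of the 13 response transcripts tested passed, beside 11.8% of all genes. Mmp9 (−1.62), Mmp3 (−1.10) and Etv5 (−0.70) were lower and Plaur (0.66) was higher in C3H. Of 8 shedding genes 2 passed, Adam19 lower (−0.60) and Timp3 higher (0.53). All 5 neutrophil markers were lower in C3H too (median −1.04), and their part in these differences was not tested. No list gene passed between the sexes at baseline or with ATG in room air.

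The genes whose pattern over the 16 group means was most like each member are given as a description, with air shared by all points. They were Hnrnpab (r = 0.975), Rtn4 and Sh3pxd2b for Egfr, and Chchd4 (0.978), Gm7008 and Ppm1j for Areg. For Ereg they were Csf1 (0.982), Dab2 and Rgs16, for Hbegf Bcl10 (0.982), Litaf and Enc1, and for Tgfa Cdk12 (0.965), Tada2b and Slc35d1. For Nrg1 they were Tmem43 (0.995), Adm2 and Psmd2. The likeness was lowest for Btc, with 1700003E16Rik (0.917), Dpy19l4 and Ccdc114.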

How the data were processed

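Lung RNA of 48 mice was sequenced as polyadenylated libraries. The authors aligned reads with GSNAP (named in the submitters' processing notes) to mm10 and deposited FPKM from Cufflinks, 1 column per mouse, with replicates not pooled; the annotation release is not given in the sources used here. FPKM is relative to all mapped fragments, so a few abundant transcripts move every other value. From the deposited FPKM, log2(FPKM + 1) was fitted with LIMMA (limma 3.58.1, R 4.3.3, trend in eBayes) by group, for genes with at least 1 FPKM in at least 3 of the mice fitted, with Benjamini-Hochberg adjusted p below 0.05 as the threshold. The fits held the 24 saline mice, the 24 room air mice, the 24 hyperoxia mice, the 12 baseline mice, or all 48. Members under the filter had exact permutation tests. Mice of a group were taken as separate animals.

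The members and lists were chosen with earlier results of these data known. Named list genes are up to 4 per list with the largest change past the threshold in saline hyperoxia, and up to 2 elsewhere, of which a few are not reported here. Rhbdf1 among the risen shedding genes, and the shedding genes that did not pass in saline hyperoxia, were named after their values were seen. So were the list genes that fell in that comparison, and Etv5 and Plaur at baseline. Like genes are the top 3 by Pearson's r. Another 1 gene, with failed estimates in 7 libraries, was left out. Gene positions are from GENCODE M21, in which 47145 of 47561 identifiers were found. The fit was tested on simulated data.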

Additional observations from a re-analysis of the deposited data

Results flagged for a closer look

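In the main fit the effect of hyperoxia on Btc differed between the strains. The interaction in saline mice, the change in C3H minus that in C57B, was 0.95 on the log2(FPKM + 1) scale (limma, adjusted p = 0.0211), with 0.08 in C3H and −0.87 in C57B. It did not pass under quantile normalization (0.70, limma, adjusted p = 0.0657). Without the C3HM saline room air mice 1 and 3 it was 0.75, in a fit that left 1 mouse in that group.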

How the results depend on the processing

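Absolute depth is unknown, so the precision of the values of Epgn and of Ereg in room air is not known. In saline hyperoxia 7 members passed under every setting except quantile normalization, where 6 did, without Btc. Ereg is in both counts although it entered the fit only through hyperoxia mice, so its call is not independent of the filter. For strain and hyperoxia 1 member passed, against 2 with median ratio scaling (Tgfa and Btc), 2 with all 48 mice (Ereg and Btc), and 1 to 2 with single mice left out. For sex and hyperoxia 0 passed, against 0 to 2 with single mice left out. Between strains and between sexes at baseline 1 passed, against 2 with all 48 mice and 1 to 2 with single mice left out. For ATG by strain in hyperoxia 0 passed, against 1 with all 48 mice and 0 to 1 with single mice left out. A pseudocount of 0.1 moved Btc to −0.64 in saline hyperoxia. No reported member change reversed.

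The count of all genes that passed moved by more than 1.5 times with all 48 mice in the fit. It went from 1880 to 2994 for strain and hyperoxia, from 6 to 306 for sex and hyperoxia, from 1832 to 2982 between strains, from 104 to 1915 between sexes, from 0 to 748 for strain by sex, and from 66 to 234 for ATG by strain. Without a filter it went from 104 to 40 between sexes, from 3 to 5 for ATG in room air, and from 470 to 313 for hyperoxia and ATG. Without C3HM room air mouse 2 it was 3242, 1270, 4021, 3640 and 2741 for the first 5 of these, 32 (from 3) for ATG in room air, and 1093 (from 470) for hyperoxia and ATG. Over single mice left out it ran from 443 to 1096 for ATG in hyperoxia (5.47% of 15860 genes with all mice), from 20 to 3640 between sexes, and from 37 to 302 for ATG by strain, the highest without C3HF mouse 33. Median ratio scaling took the upward share of calls from 75.6% to 45.8% for strain and hyperoxia, 71.1% to 41.5% for ATG in hyperoxia, 56.4% to 32.9% for hyperoxia and ATG, 33.2% to 48.3% between strains and 35.6% to 55.6% between sexes. No paired analysis was possible because the mouse numbers are not shared between groups.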
